A study of Homo sapiens with 2 samples.

Results

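The 8 genes HMGCS1, FDFT1, SQLE, FASN, SCD, SREBF1, SREBF2 and INSIG1 were taken by name, and their members in the data were the IGF2BP3 LACE-seq peaks that overlapped at least 1 bp of an exon of any of their GENCODE 44 transcripts on hg38. There were 57 such peaks, 27 of the 21142 peaks of replicate 1 and 30 of the 20799 peaks of replicate 2, and the genes were 8 of the 20046 protein-coding genes of the annotation. The cells were OE-19, a cancer cell line derived from adenocarcinoma of the esophagogastric junction and grown in RPMI1640 with fetal bovine serum. LACE-seq maps where a protein sits on RNA: UV light links the protein to its RNA, an antibody recovers both, and the ends of cDNA made from the RNA fragments are amplified linearly and sequenced. The 2 replicates formed a single group, with no genotype or treatment compared, and libraries of input RNA or IgG were not analysed here. The study calls its replicates biological, whereas the labels do not say whether they came from separate cultures.

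Cells build cholesterol from acetyl-CoA through the mevalonate pathway, in which HMGCS1 makes HMG-CoA, FDFT1 makes squalene and SQLE oxidises squalene on the way to the sterol ring. FASN builds saturated fatty acids and SCD puts the first double bond into them. SREBF1 and SREBF2 encode the membrane-bound transcription factors SREBP-1 and SREBP-2 that turn these genes on, and INSIG1 encodes an endoplasmic reticulum protein that holds the SREBPs back when sterols are plentiful. IGF2BP3 binds RNA and is regarded in the study as a reader of N6-methyladenosine (m6A), a mark often placed on GGAC. None of the 8 genes encodes a receptor or carrier for cholesterol uptake, so they are described here as sterol synthesis, fatty acid synthesis and regulatory genes. The peak lists hold no expression levels, so the labelled cell line could not be checked against marker genes.

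All 8 genes carried a peak in both replicates. Over all protein-coding genes, 37.3% had an exonic peak in replicate 1, 39.0% in replicate 2 and 31.6% in both, and 28.1% had a peak of replicate 1 that overlapped 1 of replicate 2, as did 8 of the 8. Among genes with a peak in at least 1 list, the share with peaks in both was 70.7%. A gene that is not expressed cannot have a peak, and expression was not measured here. The 8 genes were also chosen with earlier results of these data known. These shares are therefore given as a description with no test. The number of peaks per gene ran from 1 to 10, against a median of 2 in both lists for genes with a peak. SREBF2 had the most, 7 and 10, followed by SCD with 7 and 4 and SREBF1 with 4 and 5. At least as many peaks as SREBF2 were found in 5.43% of genes with a peak in replicate 1 and 1.37% in replicate 2. The other 5 genes had 1 to 3 peaks in each list.

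**Figure D1:**
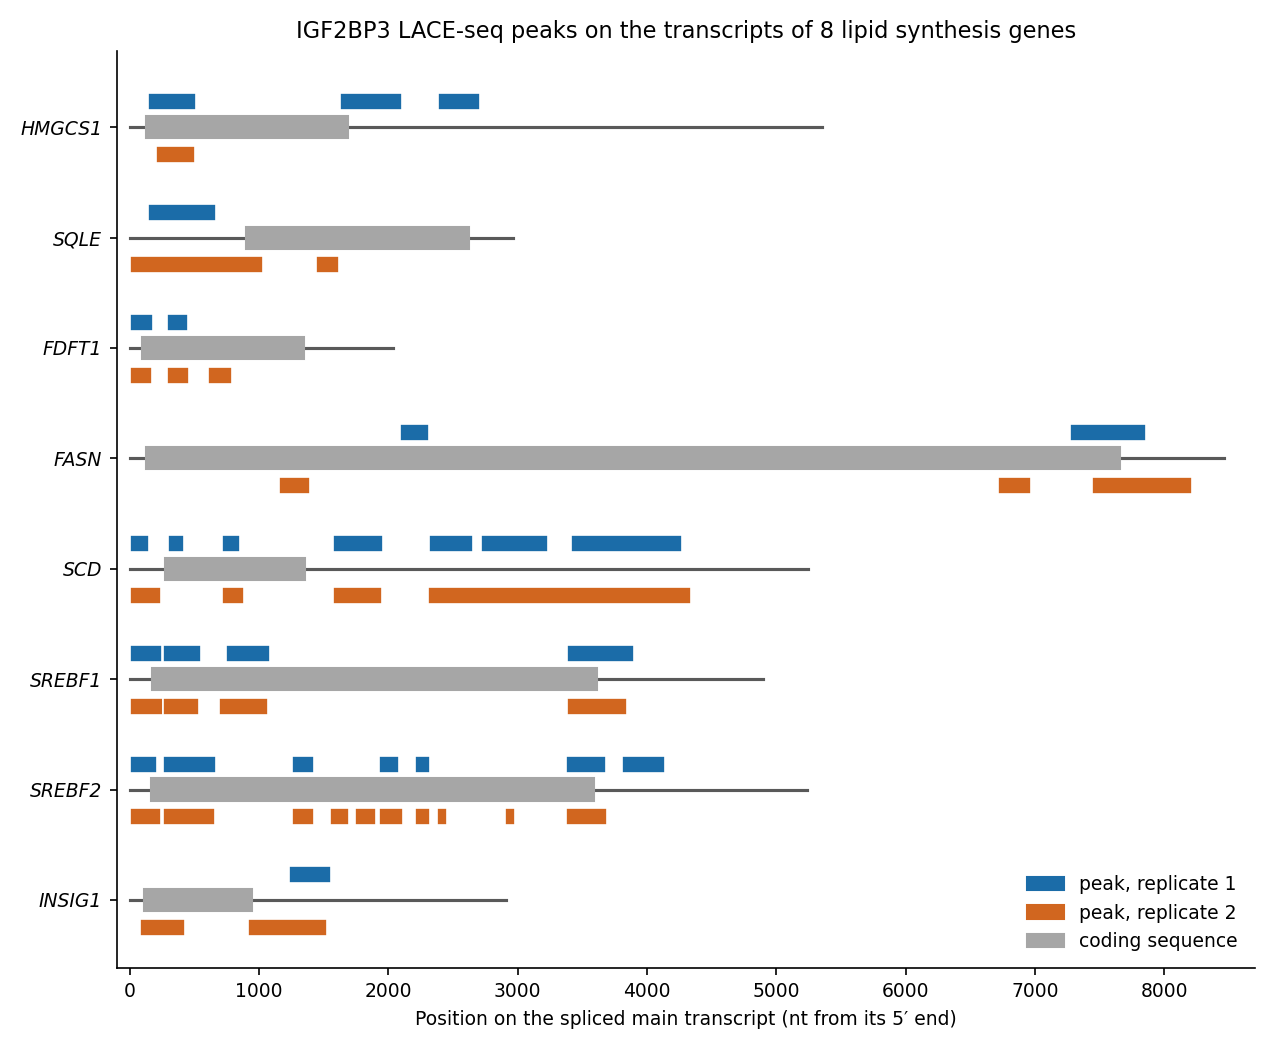
Peaks drawn on the spliced MANE Select transcript of each gene, with the position in nt from the 5′ end on the horizontal axis. Blue bars above each line are peaks of replicate 1, orange bars below are peaks of replicate 2, the thick grey box is the coding sequence and the thin line the untranslated regions. A peak of replicate 2 that lay beyond the main SREBF1 transcript is not drawn. SCD was covered mostly in its 3′ UTR, SREBF2 along its coding sequence and SQLE in its 5′ UTR.

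Of the 27 peaks of replicate 1, 22 (81.5%) overlapped a peak of replicate 2, with a 95% Wilson interval of 63.3 to 91.8%. Of the 30 peaks of replicate 2, 20 (66.7%) overlapped a peak of replicate 1, with an interval of 48.8 to 80.8%. The mean was 74.1% ± 10.5 (SD, n = 2). The same shares over the exonic peaks of all protein-coding genes were 62.3% and 61.4%. The intervals cover counting error only and take peaks as independent. Merged into sites, the peaks gave 35 sites, of which 20 were in both lists, 5 in replicate 1 alone and 10 in replicate 2 alone. All 8 genes had a site in both lists, and the sites of replicate 2 alone were most numerous in SREBF2, where exons 8, 9, 12 and 16 each had one.

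Peaks covered 23.7% of the 37102 nt of the main transcripts in replicate 1 and 28% in replicate 2, 25.8% ± 3.0 (SD, n = 2), and 6940 nt were covered in both. For all genes with a peak the covered share was 17.5% and 16.5%. By region, the peaks of the 8 genes covered 56.3% and 81.6% of the 5′ UTR bases, 17.3% and 23.5% of the coding bases, and 28.6% and 27.2% of the 3′ UTR bases. Genes with a peak in general had 23.6% and 41.2% of 5′ UTR bases, 17.7% and 17.9% of coding bases, and 16.7% and 12.8% of 3′ UTR bases under peaks. The share for the 3′ UTR rested on SCD: without it the share was 19% in replicate 1 and 14.1% in replicate 2. Without SQLE, whose 5′ UTR is the longest, the 5′ UTR shares were 54.4% and 66.0%. The 5′ UTRs of FDFT1, SREBF1 and SREBF2, of 92, 169 and 166 nt, were covered to 100% in both replicates, and those of HMGCS1 and FASN to 0%. No peak of either list was narrower than 293 bp, so a single peak over the start could fill such a short 5′ UTR.

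The site with the largest −log10 q-value in both replicates lay in a regulator. SREBF2 (chromosome 22, 41833105-41907306, plus strand) has 19 exons and an mRNA of 5237 nt. This peak lay in exon 2, in coding sequence, at 41866720-41867243 in replicate 1 and 41866661-41867238 in replicate 2. The fold enrichment over local background was 14.7 and 14.1, the −log10 q 70.6 and 63.0, and the pileup at the summit 88 and 80 reads. The summits were 6 bp apart. These folds were above 97.8% and 95.9% of the peaks of their lists. The coding bases centred between the summits are shown because no other site of the 8 genes had as large a −log10 q. Capitals mark GGAC, and the stretch is mostly agc and ggc triplets:
SREBF2 exon 2, chr22:41866911-41867011 (+): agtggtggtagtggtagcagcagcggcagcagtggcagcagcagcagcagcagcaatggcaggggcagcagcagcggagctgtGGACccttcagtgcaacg

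Exon 2 was 1 of 6 SREBF2 sites found in both lists. The peak over the transcript start and start codon in exon 1 had a fold of 6.54 with 45 reads in replicate 1 and 12.5 with 79 reads in replicate 2. The peak over exons 6 and 7 had folds of 6.63 and 4.86, that in exon 10 had 6.74 and 7.78, and that in exon 11 had 9.56 and 10.3. The peak over the stop codon in exon 19 had folds of 6.34 and 8.63, with 33 and 66 reads. The start and the stop codon peaks were thus both higher in replicate 2, while the coding peaks between them differed in either direction. Exon 6 codes for part of the helix-loop-helix and leucine zipper of SREBP-2. The gene also had 1 peak of replicate 1 alone, in the 3′ UTR at 41905875-41906207 with a fold of 4.85, and 4 of replicate 2 alone. These were in exon 8 (fold 6.39), exon 9 (6.98), exon 12 (11.1) and exon 16 (6.72), with pileups of 42, 46, 26 and 32 reads. Peaks of replicate 2 covered 47.9% of the SREBF2 coding sequence, against 32.6% in replicate 1, and 32.3% was covered in both. Some of these peaks lay partly in introns of the main transcript. The peaks of exons 12 and 16 had 79 and 77 bp in its exons and 249 and 234 bp in its introns, and the latter peak lay wholly within exons once all SREBF2 transcripts were counted.

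SREBF1 (chromosome 17, 17810399-17837002, minus strand) also has 19 exons, with an mRNA of 4901 nt. All 4 peaks of replicate 1 had a partner in replicate 2. The peak over the transcript start and start codon in exon 1 had folds of 8.86 and 10.6, with 45 and 53 reads, and summits 1 bp apart. The peak in exon 2 had folds of 3.75 and 3.73, with the highest pileup of all 27 peaks in replicate 1 and 91 reads in replicate 2. The peak over exons 3 to 5 had folds of 2.99 in both, with 82 and 78 reads, and that over the stop codon in exon 19 had 3.0 and 4.10, with 62 and 118 reads. The 3 downstream peaks thus had more reads than the start peak and a lower fold, on a background of at least 20 reads, against 4.19 and 4.09 at the start. No base of exons 6 to 18 lay under a peak in either replicate. A peak of replicate 2 alone, at 17810566-17811105 with a fold of 3.01, overlapped no exon of the main transcript but an exon of another SREBF1 transcript, and an exon of RAI1 on the opposite strand. The files give no strand, so these could not be told apart.

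SREBF1 and SREBF2 are paralogues, and both had peaks of both replicates over exon 1, exon 2 and the stop codon in exon 19. After alignment of the translated coding sequences, 1108 codon pairs were aligned and 47.9% of the paired residues were identical. Codons under a peak in both replicates were 306 of 1147 in SREBF1 and 371 of 1141 in SREBF2. At 174 aligned pairs both genes were under such peaks, which is 56.9% of the SREBF1 codons and 46.9% of the SREBF2 codons under peaks. The genes differed between these ends: SREBF1 had peaks over exons 3 to 5, where SREBF2 had none, and SREBF2 had shared peaks over exons 6, 7, 10 and 11, where SREBF1 had none. Parts of the coding sequence under peaks of both replicates, at the 5′ end and in exon 19, are printed so that the paralogues can be compared. Capitals mark GGAC, which in both genes joins the last base of the start codon to the codon after it:
SREBF1 exon 1, chr17:17836767-17836817 (-): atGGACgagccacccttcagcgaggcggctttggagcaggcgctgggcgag
SREBF2 exon 1, chr22:41833271-41833312 (+): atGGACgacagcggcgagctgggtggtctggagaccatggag
SREBF1 exon 19, chr17:17812699-17812799 (-): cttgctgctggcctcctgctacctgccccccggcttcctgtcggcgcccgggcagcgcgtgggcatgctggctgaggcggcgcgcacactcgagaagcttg
SREBF2 exon 19, chr22:41905504-41905604 (+): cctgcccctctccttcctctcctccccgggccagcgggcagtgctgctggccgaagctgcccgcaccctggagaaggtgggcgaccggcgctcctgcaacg

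The stretches of exon 1 had 29 of 39 aligned bases in common (74.4%), and those of exon 19 had 57 of 80 (71.3%). The stretches under peaks of both replicates in exon 2 were less alike, with 32 of 54 aligned bases in common (59.3%). The exon 19 stretches held no GGAC. At the start of SREBF2, an exon of the antisense gene SREBF2-AS1 also lay under the peaks of both replicates, and its share of the reads was not tested.

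INSIG1 (chromosome 7, 155297776-155310235, plus strand) had 1 peak in replicate 1 and 2 in replicate 2. The shared site lay in the 3′ UTR, at 155308560-155308881 with a fold of 10.8 and 24 reads in replicate 1, and at 155308210-155308852 with a fold of 9.34 and 27 reads in replicate 2, where the peak reached back over the stop codon. Replicate 2 had a further peak at the 5′ end, at 155298051-155298602, with a fold of 12.5, the highest of the gene, and 46 reads. It covered the start codon and 317 bp of coding sequence. The 2 peaks of replicate 2 together covered 41.6% of the coding sequence, of which no base was covered in replicate 1. The peak that was found in 1 list alone was therefore stronger than the shared one.

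SCD had the most extensive coverage. The gene lies on the plus strand of chromosome 10 (100347233-100364826), and 3893 of its 5245 nt are 3′ UTR. Peaks covered 48.0% of the mRNA in replicate 1 and 54.1% in replicate 2, more than 89.9% and 93.8% of the genes with a peak, and 54.3% and 62.1% of the 3′ UTR. Of the 3′ UTR bases, 54.1% were covered in both. Replicate 1 had 4 separate 3′ UTR peaks, with folds of 4.43, 3.17, 3.75 and 4.87 and pileups of 80, 54, 64 and 83 reads from 5′ to 3′. Replicate 2 had 2, the first matching the first of replicate 1 with a fold of 3.32 and 72 reads, and the second a single peak of 2036 bp at 100361887-100363922, with a fold of 5.61 and 117 reads, that spanned the other 3. The stretch of 3′ UTR under peaks was thus nearly the same although the number of peaks was not.

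Outside the 3′ UTR, SCD had a peak over the transcript start with a fold of 8.13 and 20 reads in replicate 1 and 14.1 and 58 reads in replicate 2. The latter fold was the highest in replicate 2 among the peaks of these genes. The summit of the start peak in replicate 2 lay at position -45 relative to the annotated start, outside the gene. A coding peak in exon 4 had folds of 6.34 and 6.16 with 20 and 22 reads, and a peak in exon 2 was found in replicate 1 alone, with a fold of 7.54 and 22 reads. The exon 4 stretch is shown as the coding site of SCD found in both replicates. It held no GGAC:
SCD exon 4, chr10:100354427-100354477 (+): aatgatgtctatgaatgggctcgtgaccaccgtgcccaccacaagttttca

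The 31 bases around the summit of the most 3′ SCD peak of replicate 1 occurred at 2 places in hg38, as did those around the HMGCS1 summit of replicate 2, and for the other 55 peaks at 1.

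FASN (chromosome 17, 82078338-82098294, minus strand) has 43 exons and the longest mRNA of the set, 8464 nt, almost all coding. Its 2 and 3 peaks covered 9.62% and 15% of it. The only shared site lay over the stop codon, with folds of 3.51 and 3.60 and 70 and 103 reads. The summits were 325 bp apart, in coding sequence in replicate 1 and in the 3′ UTR in replicate 2. Replicate 1 alone had a peak over exons 13 and 14 (fold 3.62, 75 reads), and replicate 2 alone had peaks in exon 9 (fold 2.76, 84 reads) and over exons 39 and 40 (fold 2.19, 78 reads). The last fold was the lowest of the 57 peaks. Every FASN peak had at least 70 reads at its summit and a background of at least 19.3 reads.

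HMGCS1 (chromosome 5, 43287470-43313512, minus strand) was marked by 3 peaks in replicate 1 and by 1 in replicate 2. The shared peak lay in coding sequence of exon 3, at 43298578-43298946 with a fold of 7.57 and 17 reads, and at 43298590-43298885 with a fold of 7.26 and 18 reads. Replicate 1 alone had a peak over the stop codon (fold 4.53, 16 reads), which also lay over an exon of an unnamed gene on the other strand, and a 3′ UTR peak (fold 5.14, 18 reads). No base of the 3661 nt 3′ UTR was covered in replicate 2, against 20.2% in replicate 1. No peak of HMGCS1 held GGAC in either replicate. Bases of the shared peak are shown as the single site of this gene found in both lists:
HMGCS1 exon 3, chr5:43298774-43298874 (-): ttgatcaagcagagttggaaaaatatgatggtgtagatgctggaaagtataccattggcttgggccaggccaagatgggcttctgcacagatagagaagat

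**Figure D2:**
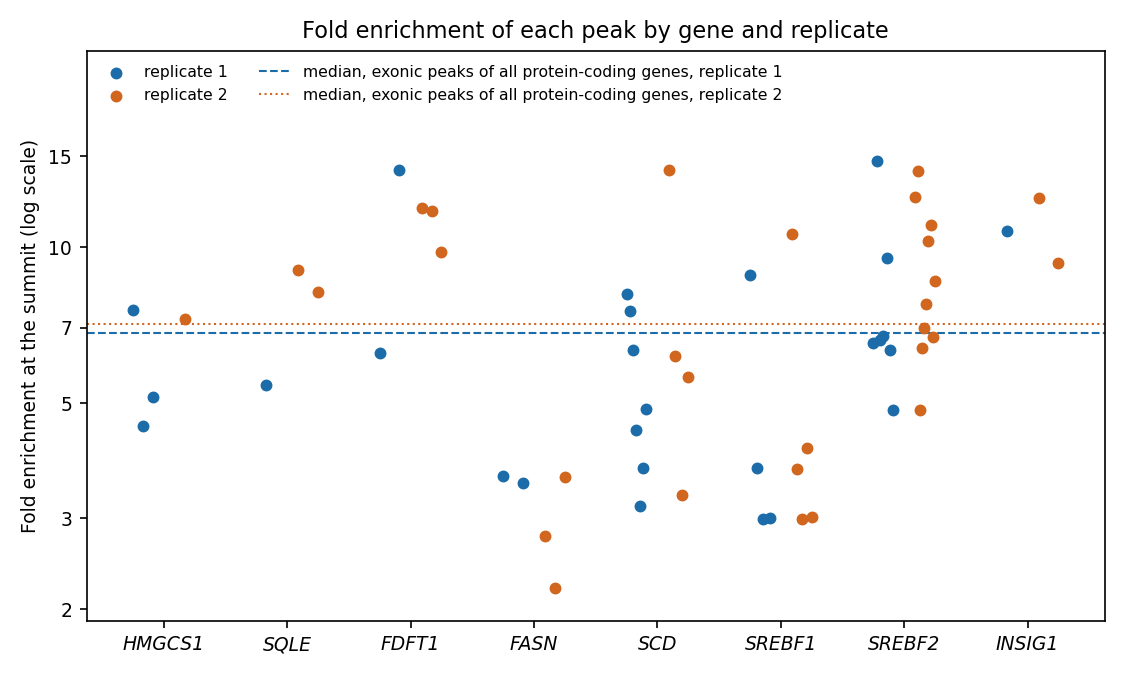
Fold enrichment at the summit of each of the 57 peaks (vertical axis, log scale) by gene, with replicate 1 in blue and replicate 2 in orange. Within a gene and replicate, points run from 5′ to 3′. The lines are the medians over exonic peaks of all protein-coding genes, 6.84 in replicate 1 and 7.13 in replicate 2. All FASN peaks, the 3′ UTR peaks of SCD and the SREBF1 peaks downstream of the start lie below both lines.

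FDFT1 (chromosome 8, 11795573-11839395, plus strand) was marked by 2 peaks in replicate 1 and by 3 in replicate 2. The stronger of replicate 1 lay at exon 3, at 11809436-11809824, with a fold of 14.1 and 35 reads, and its partner in replicate 2 at 11809426-11809837 with a fold of 11.8 and 34 reads. The summits were 3 bp apart but lay in an intron, and 158 and 171 bp of the peaks were in exons of the main transcript. The peak over the transcript start of the main transcript and its start codon had a fold of 6.24 with 10 reads in replicate 1 and 11.9 with 33 reads in replicate 2. In replicate 2 this peak also lay over an exon of a gene on the opposite strand. A peak at exon 5 (fold 9.78, 20 reads) was found in replicate 2 alone. All 3 summits of replicate 2 lay outside FDFT1 exons, so with peaks placed by their summit 7 of the 8 genes, all but FDFT1, had an exonic peak in both lists.

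SQLE (chromosome 8, 124998497-125022283, plus strand) has a 5′ UTR of 899 nt, and its shared site lay there. In replicate 1 the peak covered 526 bp within the 5′ UTR, with a fold of 5.43 and 10 reads. In replicate 2 it was 1203 bp long and covered the whole 5′ UTR and the start codon, with a fold of 9.05 and 40 reads, and its summit was 20 bp from that of replicate 1. A peak at exon 3 was found in replicate 2 alone, with a fold of 8.19 but only 12 reads and a background of 0.588 reads. SQLE had no peak in its 3′ UTR in either replicate, and neither had FDFT1.

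The folds of the 57 peaks were between 2.99 and 14.7 in replicate 1 and between 2.19 and 14.1 in replicate 2. Their medians were 6.24 and 7.52, against 6.84 and 7.13 for exonic peaks of all protein-coding genes. The pileups were higher than usual, with medians of 35 and 49.5 reads against 24 and 23, and so was the local background, with medians of 4.28 and 4.87 reads against 2.29 and 1.97. The set split by background. In each replicate 9 peaks had a background above the 90th percentile of their list, and all of them lay in FASN (2 and 3 peaks), the 3′ UTR of SCD (4 and 2) or SREBF1 downstream of its start (3 and 4). Their folds were 2.99 to 4.87 in replicate 1 and 2.19 to 5.61 in replicate 2, and none exceeded the 14.1 and 20.4 percentile of its list. Their pileups, at least 54 and 62 reads, lay at or above the 88.4 and 90.9 percentile. The remaining 18 and 21 peaks had a median fold of 6.69 and 9.34 on a median background of 2.72 and 3.53 reads. The median pileup of these remaining peaks was 24.5 reads in replicate 1, near the 24 of exonic peaks in general, and 40 reads in replicate 2. The fold is the ratio of pileup to background with 1 read added to each, so the same pileup gives a lower fold on a higher background. Transcript levels and total reads were not measured here, and their part in the background was not tested.

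**Figure D3:**
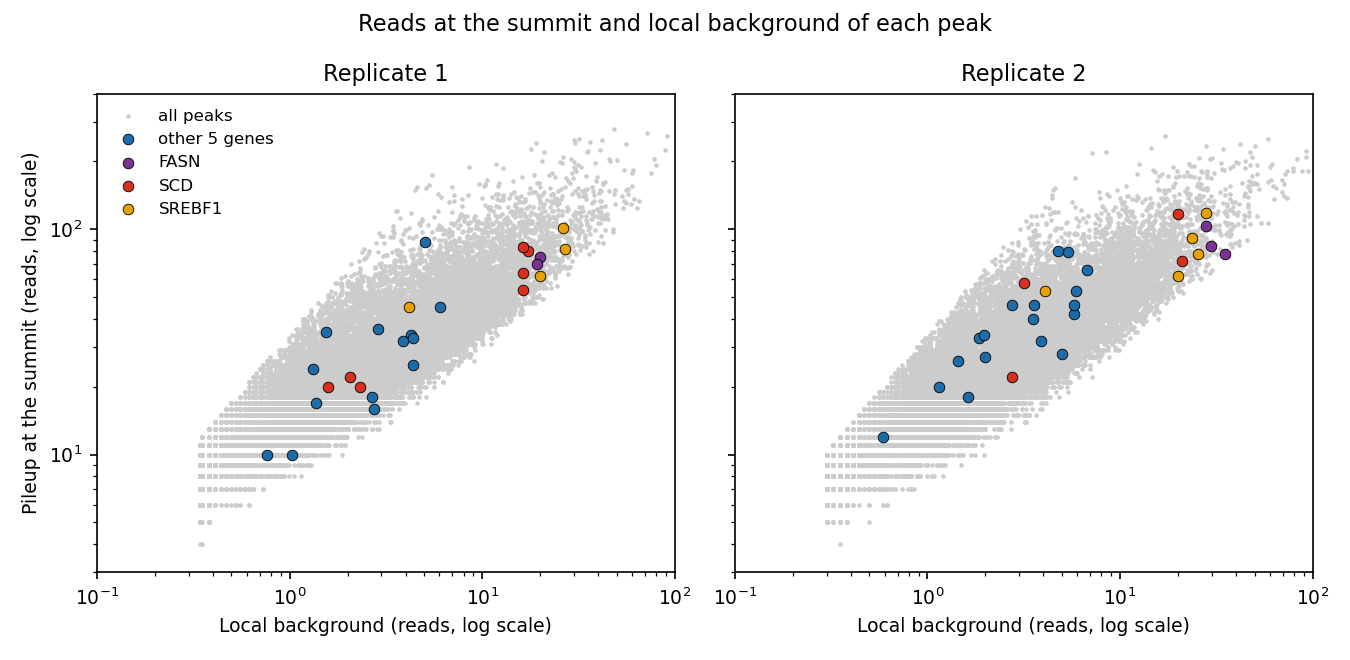
Pileup at the summit against local background, both in reads on log scales, for replicate 1 (left) and replicate 2 (right). Grey points are all peaks of the list, and coloured points are the peaks of FASN, SCD, SREBF1 and the other 5 genes. In each panel the 9 coloured points at a background above 16 reads are peaks of FASN, SCD and SREBF1.

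The replicates were compared over the 22 overlapping pairs, in which 3 peaks of SCD shared a single partner. The fold had a Spearman correlation of 0.780 across pairs and the pileup 0.777, as a description only. The median distance between summits was 63 bp, from 1 to 567. At transcript starts, all 5 pairs (SQLE, FDFT1, SCD, SREBF1 and SREBF2) had the higher fold in replicate 2, with a median ratio of 1.74 (1.20 to 1.92) and a median pileup ratio of 2.90. For SQLE only the peak of replicate 2 reached the start itself. Among the 1643 start pairs of all protein-coding genes, 78.0% were higher in replicate 2, with a median ratio of 1.26 and a median pileup ratio of 1.41. The 9 pairs elsewhere in coding sequence had a median ratio of 0.972 (0.733 to 1.15), with 3 higher in replicate 2, against 1.02 over 5345 such pairs. The 4 pairs in which at least 1 peak lay over the stop codon had a median ratio of 1.19 and the 4 pairs in 3′ UTR alone 1.32, against 1.05 in both classes over all genes. In INSIG1, the only stop codon pair with a ratio below 1 (0.866), the peak of replicate 1 did not reach the stop codon. The start sites were therefore the class in which the replicates differed most in these genes, and the same direction was seen over all genes.

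**Figure D4:**
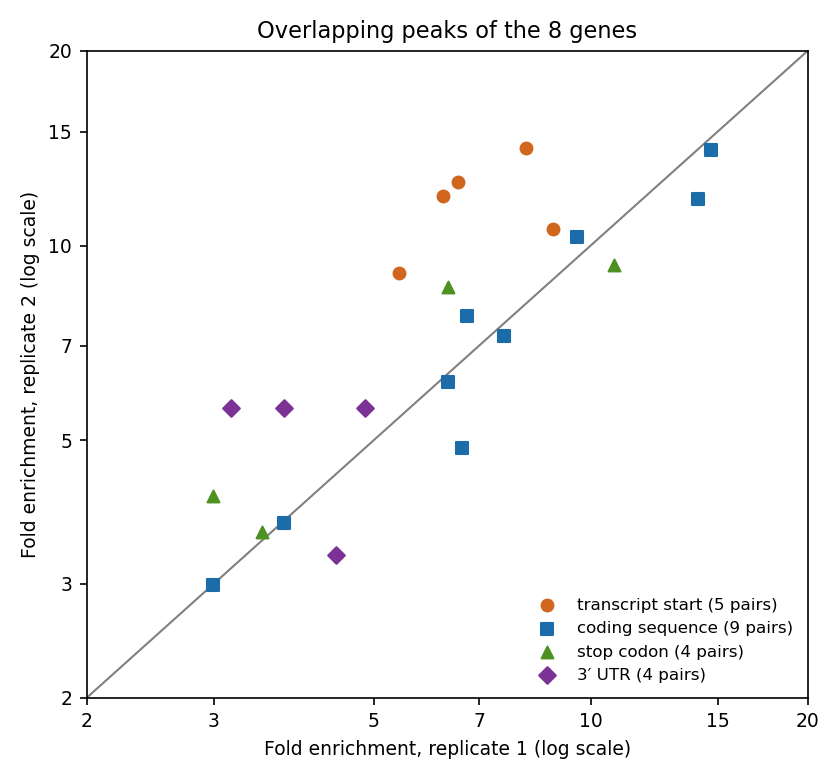
Fold enrichment in replicate 1 (horizontal) and replicate 2 (vertical), both on log scales, for the 22 pairs of overlapping peaks. Colour and shape give the class of the pair, and the line marks equal folds. All 5 transcript start pairs lie above the line, and coding pairs lie near it.

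By position, 18 of 27 peaks in replicate 1 (66.7%, interval 47.8 to 81.4%) and 26 of 30 in replicate 2 (86.7%, 70.3 to 94.7%) touched coding sequence, against 72.2% and 71.7% of exonic peaks of all protein-coding genes. Peaks that touched coding sequence were thus more numerous in replicate 2, and peaks in 3′ UTR alone were fewer. Peaks in 3′ UTR alone were 7 in replicate 1, 4 of them the SCD peaks that replicate 2 had as 2, and the other 3 those of HMGCS1, SREBF2 and INSIG1. In replicate 2 they were the 2 SCD peaks, 6.67% of the list, against 25.9% in replicate 1 and 19.1% and 14.7% over all genes. The stop codon was under a peak of both replicates in FASN, SREBF1 and SREBF2, in HMGCS1 in replicate 1 alone and in INSIG1 in replicate 2 alone. With 4 peaks in each replicate, the share over a stop codon was 14.8% and 13.3%, and over all genes 14.9% and 13.3%. The transcript start was under 4 and 5 peaks, 14.8% and 16.7%, against 8.69% and 17.9%. Summits lay within the gene but in no exon of any of its transcripts for 5 and 10 peaks, 18.5% and 33.3%, against 24.9% and 22.4%. In replicate 2 these included the FDFT1 start peak and the SREBF1 peak beyond the main transcript, which lay outside introns of the main transcripts.

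GGAC, the core of the m6A consensus, was searched on the strand of the gene. The searched sequence was genomic, so it could include introns and bases upstream of the transcript. It lay within 50 nt of the summit in 7 of 27 peaks in replicate 1 (25.9%, interval 13.2 to 44.7%) and 5 of 30 in replicate 2 (16.7%, 7.34 to 33.6%). Over exonic peaks of all protein-coding genes the shares were 29.5% and 32.5%. Anywhere in the peak, GGAC was found in 55.6% and 60.0%, against 71.3% and 76.2%. The longer TGGAC, which contains it, lay in 40.7% and 43.3% of whole peaks, against 35.4% and 36.2%, and the degenerate DRACH consensus within 50 nt of 74.1% and 70.0% of summits, against 80.9% and 76.2%. In these windows the shares with GGAC were below those of exonic peaks in general, by less than the counting interval except over whole peaks in replicate 2, where the upper bound was 75.4%. In the window of the same length around the middle of the peak the direction turned in replicate 1, where 37.0% of these peaks and 28.5% of exonic peaks in general held it. In replicate 2 the corresponding shares were 20% and 32.3%. Of the peaks that held it near the summit, 4 of the 7 in replicate 1 were SCD peaks, and in replicate 2 SREBF2 had 2 of the 5. The SREBF2 exon 2 site held GGAC near its summit in both replicates, and so did the start peaks of SCD and SREBF1. The SCD start summit of replicate 2 lay at position -45, so most of its window was upstream of the annotated transcript. A match in these letters does not show that a site is methylated.

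To place the 8 genes in their pathway, a list of 55 genes of sterol and fatty acid synthesis, SREBP control and sterol transport was examined, which does not cover every gene of these pathways. Of the 47 that are not among the 8, 28 (59.6%) had a peak in both replicates, 10 in replicate 2 alone, none in replicate 1 alone and 9 in neither. Over all protein-coding genes 31.6% had a peak in both, 5.68% in replicate 1 alone and 7.43% in replicate 2 alone. Among genes with a peak in at least 1 list, 70.7% had peaks in both, beside the 28 with both and 10 with 1 here. Expression was not measured and the list was chosen with earlier results known, so these shares are a description only. By role, both replicates had a peak in 3 of 7 further genes of the mevalonate pathway to squalene, 7 of 11 from squalene to cholesterol, 6 of 10 of fatty acid synthesis, 4 of 9 of SREBP control and 8 of 10 of sterol uptake, transport and storage. Among those with the most peaks were ACACA, SCARB1, OSBP and SPRING1. ACACA, which makes the malonyl-CoA that FASN uses, had 6 and 11 peaks with highest folds of 9.89 and 15.6. The fold of 15.6 belonged to a peak of replicate 2 alone, which had 0 bp in exons of the main transcript and its summit in an intron. The next highest ACACA fold of replicate 2 was 10.1, in a peak that overlapped a peak of replicate 1. SCARB1, a receptor for high density lipoprotein, had 6 and 5, and OSBP, which carries sterol between membranes, also 6 and 5, with highest folds of 15.4 and 15.3 for the former and 12.4 and 12.1 for the latter. SPRING1, which is needed for SREBP activation, had 4 and 6, with highest folds of 14.3 and 18.1. None of these 4 had more peaks in replicate 1 than the 7 of SREBF2 and SCD, and ACACA alone had more in replicate 2 than the 10 of SREBF2.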

How the data were processed

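IGF2BP3 LACE-seq peaks were analysed from both replicates of OE-19 cells. Per the submitters' processing notes, fastp, HISAT2 and MACS2 were used with hg38, whereas the study's methods name Bowtie and Piranha for LACE-seq. The deposited files have the narrowPeak layout of MACS, with peaks called by the authors in each replicate separately and no strand given, so each peak took the strand of its gene. The authors' fold enrichment is a ratio of summit signal to local background. Significance was deposited as −log10 of the p-value and of the q-value, and the deposited score column was not used. No library totals were used here, so depth is given as pileup. The whole number of reads at each summit, and the background, were recovered from the deposited fold and −log10 p-value under a Poisson model, with a tolerance of 0.01 on the −log10 scale, for all 21142 and 20799 peaks. The lowest pileup was 4 reads in both.

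Peaks were assigned to a gene by 1 bp of overlap with an exon of GENCODE 44, and to coding sequence or UTRs by the MANE Select transcript. In shares of exonic peaks of all protein-coding genes, a peak over exons of more than 1 such gene was counted once per gene. These shares were thus over 18681 and 19014 pairs of peak and gene, from 17650 and 17803 peaks. Coordinates are 1-based. Overlap between replicates needed 1 shared bp. Counting intervals are 95% Wilson intervals. Paralogue coding sequences were translated and aligned globally with Biopython 1.88, and printed sequence was read from hg38. Python 3.11.15 with pandas 2.3.3, numpy 2.4.6, scipy 1.17.1 and pysam 0.24.0 was used, and peak recovery and overlap counting were tested on simulated data. With 1 group and no control, no test was made. The 8 genes, the pathway list and the tests were chosen with earlier results of these data known. The named genes were all 8 and, of the pathway list, the 5 others with the most peaks, of which 1 is not reported here. Alternatives changed the assignment rule, the peaks used, the overlap rule, the motif window and the replicates used.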

Additional observations from a re-analysis of the deposited data

How the results depend on the processing

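Of 55 alternative values for 7 results under 12 settings, 46 moved by less than the spread between replicates or stayed within 1.5 times the reported count, 9 moved and 0 reversed. Some of the 46 could not have moved. A −log10 q of at least 5 left all 27 and 30 peaks in place. A mean of 2 replicates always lies within their SD of each. The values are levels with no contrast, so none had a direction to reverse. With only the 5000 peaks of the largest −log10 q of each list, 4 genes had a peak in both replicates in place of 8, the mean number of peaks per replicate was 12.5 in place of 28.5 (8 and 17), the median fold was 9.01 in place of 6.88, the share of peaks with GGAC was 33.5% in place of 21.3%, and the covered share of the mRNA was 13.4% in place of 25.8%. The share of peaks that overlapped the other replicate was 56.3% where 50% of both peaks had to be shared and 31.7% where summits had to lie within 50 bp, in place of 74.1%. The share with GGAC was 57.8% over whole peaks and 28.5% in the window of the same length around the middle of the peak. The cause was not tested, beyond fewer peaks in the first setting and longer sequence over whole peaks. Using replicate 2 or replicate 1 alone gave 30 and 27 peaks, median folds of 7.52 and 6.24, coding shares of 86.7% and 66.7%, GGAC shares of 16.7% and 25.9% and covered shares of 28% and 23.7%. The overlap between replicates needs both lists and could not be computed with either left out.

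With 2 replicates of 1 group and no input library, a difference between the lists cannot be told apart from their sequencing depth. The lowest pileup of a peak of the 8 genes was 10 reads in replicate 1 and 12 in replicate 2, and a missing peak is no sign that a site was not bound. No paired analysis was possible because there was 1 group.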

Other observations

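One peak lay within a member gene without touching an exon, at chr17:17835925-17836217 in an intron of SREBF1 in replicate 1, with a fold of 3.23 and 17 reads, and it had no partner in replicate 2. The processed pseudogene SCDP1, on chromosome 17 from 20784645 to 20785725, had 0 peaks in either replicate.

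The introns of SREBF2 and SREBF1 host the microRNA genes MIR33A and MIR33B. No peak covered either hairpin. The nearest peak to MIR33A, on chromosome 22 from 41900944 to 41901012, was 4379 bp away in replicate 1 and 538 bp away in replicate 2, and the nearest to MIR33B, on chromosome 17 from 17813836 to 17813931, was 957 and 874 bp away. MIR6777, in another stretch of SREBF1, was 601 and 518 bp from the peak over the stop codon.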
